A study of Mus musculus with 6 samples.

Results

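The mitochondrial chromosome of the mouse encodes the RNAs described here: all genes of the deposited gene table whose name starts with mt-. They numbered 37 of the 34361 genes in the table, with 13 protein genes, 2 rRNAs and 22 tRNAs, and each had 1 annotated transcript. The data came from 6 poly(A)-selected RNA-seq libraries of mouse femur, from 3 mice per group according to the design text. In the knockout-labelled group tamoxifen had been used to delete a gene, and the control mice had received corn oil. The design text names Fshr, the receptor gene for follicle-stimulating hormone, as the deleted gene, whereas the treatment label names FGF21. The sources used here do not give strain, sex, age, Cre line or the state of the ovaries of these mice. Tamoxifen went to the knockout-labelled mice alone, so drug and knockout cannot be told apart.

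Mitochondrial DNA is transcribed from both strands into long precursors that carry many genes each. In most places tRNAs sit between the protein genes and rRNAs. Cutting the tRNAs out releases the individual RNAs, many but not all of which then receive short poly(A) tails. The 13 proteins are core subunits of respiratory complexes I, III and IV and of the ATP synthase, and the rRNAs and tRNAs serve the mitochondrion's own ribosomes. Skeletal and heart muscle hold many mitochondria per cell, while mature red blood cells have none.

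The features of these genes that matter for reading the values are visible in their sequences, taken from GENCODE release M21 by gene ID and written 5′ to 3′. The deposited coordinates are on chromosome MT of GRCm39, per the submitters' processing notes. mt-Atp8 (7766 to 7969, plus strand) and mt-Atp6 (7927 to 8607, plus strand), which encode subunits of the ATP synthase, share 43 bases, shown in capitals at the end of the first and the start of the second. A read inside them belongs to both genes.
mt-Atp8 end: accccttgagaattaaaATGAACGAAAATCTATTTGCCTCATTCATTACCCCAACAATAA
mt-Atp6 start: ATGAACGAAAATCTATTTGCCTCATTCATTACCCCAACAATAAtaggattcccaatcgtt
mt-Nd4l and mt-Nd4 overlap in the same way by 7 bases. Of the 13 protein genes 10 end in a complete TAA or TAG, but mt-Co3, mt-Nd4 and mt-Cytb stop 1 base after their last whole codon. That lone T, in capitals, becomes a stop codon only when the poly(A) tail is added, so the tail completes the reading frame of these 3 mRNAs.
mt-Co3 end: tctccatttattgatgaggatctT
mt-Nd4 end: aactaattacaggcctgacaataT
mt-Cytb end: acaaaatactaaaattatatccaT
Near-identical nuclear copies also bear on the values. A block of chromosome 1 (24650616 to 24655278) holds 7 annotated pseudogenes that matched mt-Co1, mt-Co2, mt-Atp6, mt-Co3, mt-Nd3, mt-Nd4l and mt-Nd4 at 99% identity or more. In 5 of these the aligned part had no mismatch. The copy of mt-Nd3 carried 1 substitution, T3C, and that of mt-Co1 carried A1066T, both counted from the first base of the mitochondrial gene, with its base first. The differing bases are in capitals.
mt-Nd3: atTaacctgtacactgttatcttcattaa
Gm28438: atCaacctgtacactgttatcttcattaa
mt-Co1: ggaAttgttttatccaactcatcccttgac
Gm29216: ggaTttgttttatccaactcatcccttgac

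Totals per library ran from 65.8 M to 73.5 M estimated counts. Low counts clustered at multiples of 4, which made up 43.8% to 49.2% of those examined per library. On this basis 1 read pair was taken as 4 counts, giving 16.4 M to 18.4 M read pairs. The other low counts did not follow this unit, so values that rest on it are approximate. Fshr and Fgf21 had 0 counts in all 6 libraries, which allows up to 12 counts (3 read pairs) in each, so the knockout could not be checked here. Libraries of a group differed beyond counting noise. The median chi-square per gene was 0.689 to 0.74 for pairs of libraries within a group, where counting noise alone gives 0.455, and the mean was 2.07 to 2.58. All 6 libraries were kept. Of 20388 genes tested with edgeR's quasi-likelihood method, 28.7% were called higher in the knockout-labelled group and 28.8% lower, 57.5% in either direction, at a Benjamini-Hochberg adjusted p under 0.05. The scaled counts of the groups did not overlap for 64.4% of them. Fold changes are scaled with TMM, which sets the bulk of genes near 0. Scaling by library totals moves the median gene by -0.42 on the log2 scale, and ratios of FPKM means are lower than the TMM folds by about that shift.

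Mitochondrially encoded RNAs made up a larger part of the knockout-labelled libraries in all 3 classes. The 13 protein genes took up 12.6%, 12.2% and 12.3% of the total count in knockout-labelled replicates 1 to 3. In the control libraries they took up 5.50%, 5.56% and 5.58%. The lowest knockout-labelled library thus stood at more than double the highest control, and the means were 12.4% ± 0.169 and 5.54% ± 0.0428 (SD, n = 3 each), a ratio of 2.23. The 2 rRNAs, which form the core of the mitochondrial ribosome, held far less. Their share was 0.180%, 0.183% and 0.187% of counts in the knockout-labelled libraries and 0.0735%, 0.0751% and 0.0761% in the controls, a ratio of means of 2.45. The 22 tRNAs together held 0.0371%, 0.0360% and 0.0370% against 0.0143%, 0.0143% and 0.0149%, a ratio of 2.52. The groups did not overlap in any class. In each class the exact permutation test (two-sided) gave p = 0.1, the smallest value that 3 against 3 allows. The Wilson 95% intervals, which cover counting error only at 4 counts per pair, reached at most 0.0159 percentage points from a protein-gene share, 0.00208 from an rRNA share and 0.000936 from a tRNA share.

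**Figure D1:**
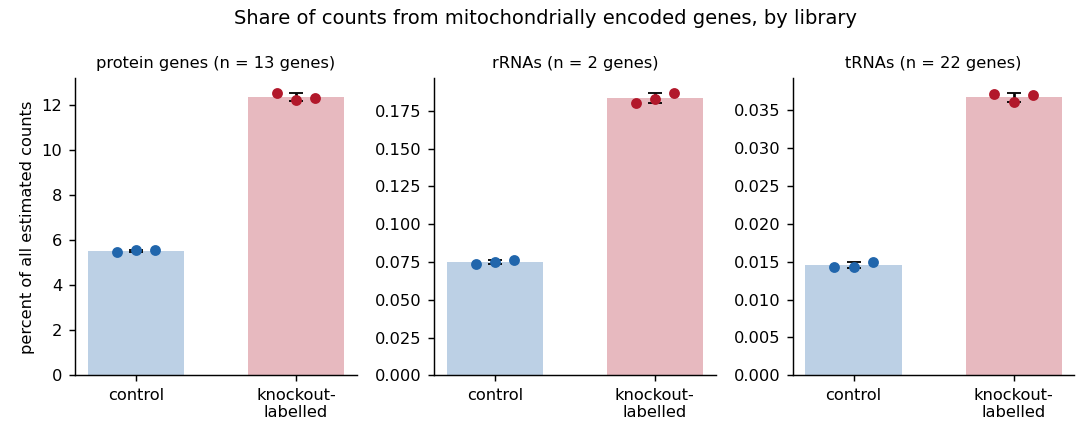
Percent of all estimated counts held by the 13 protein genes, the 2 rRNAs and the 22 tRNAs of the mitochondrial chromosome. Points are libraries, bars are group means and whiskers are SD (n = 3); each panel has its own axis from 0, and the knockout-labelled points lie above all control points in each, at 12.2% to 12.6% against 5.50% to 5.58% for the protein genes.

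Markers of several cell types moved between the groups as well. For the counts below, 28.7% of all tested genes were called higher and 28.8% lower. The 12 skeletal muscle markers, all called higher, summed to 9.68% to 9.74% of counts in the knockout-labelled libraries and 1.90% to 1.93% in the controls. The 6 slow muscle markers, all higher, summed to 0.518% to 0.522% against 0.283% to 0.285%. The 8 erythroid markers, all higher, summed to 1.11% against 0.537% to 0.555%. The 7 adipocyte markers, 6 of them higher and 1 lower, summed to 0.0318% to 0.0326% against 0.00354% to 0.00396%, and all 5 B cell markers found in the table were higher. The 8 osteoblast markers went the other way, all lower, at 1.93% to 1.95% against 9.83% to 9.95%. All 6 osteoclast, 7 neutrophil and 6 macrophage markers were lower too. Of the 5 osteocyte markers 2 were higher and 2 lower. No marker was at 0 in all libraries. The part of these cell types in the mitochondrial values was not tested, and in RNA from a bulk tissue a difference in cell number cannot be told apart from one in RNA per cell.

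All 13 protein genes passed the low-count filter and all were called higher, where 28.7% of the tested genes were. Their log2 fold changes ran from 1.38 to 1.90 with a median of 1.58, beside a median of -0.02 over all genes tested. With library totals in place of TMM they ran from 0.96 to 1.48, so each rise is smaller on that scale and none turns. No library of one group reached into the other for any of the 13, which by scaled counts held for 64.4% of all tested genes. Levels are given below in FPKM, the authors' length-scaled unit, complex by complex.

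Complex I, which takes electrons from NADH, has 7 mitochondrially encoded subunits. mt-Nd1 stood at 10406, 10275 and 10288 FPKM in the knockout-labelled libraries and at 4283, 4254 and 4201 FPKM in the controls (log2 fold change 1.71, SE 0.011, edgeR adjusted p = 2.1e-17). mt-Nd2 stood at 8020, 7835 and 7870 FPKM against 2809, 2856 and 2868 FPKM. Its log2 fold change of 1.90 (SE 0.019, edgeR adjusted p = 1.3e-16) was the highest of the 13, under every setting that was run. mt-Nd3 was the least abundant protein gene per length in both groups, with 1351, 1299 and 1263 FPKM against 546, 607 and 595 FPKM (log2 fold change 1.59, SE 0.060). mt-Nd4l had 4123, 3912 and 3649 FPKM against 1707, 1695 and 1674 FPKM. mt-Nd4, which lies just after it on the same mRNA, had 7016, 7012 and 6926 FPKM against 3110, 2890 and 3089 FPKM. Both rose by 1.63 on the log2 scale (SE 0.055 and 0.034). mt-Nd5 had 4517, 4383 and 4540 FPKM against 2057, 2025 and 2032 FPKM (log2 fold change 1.56, SE 0.017).

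mt-Nd6, the remaining complex I subunit, is the only protein gene read from the other strand. It had 4143, 3917 and 4036 FPKM against 1801, 1711 and 1803 FPKM, a log2 fold change of 1.61 (SE 0.035, edgeR adjusted p = 7.0e-14). Set against the other 12 protein genes, its counts were 1.89%, 1.83% and 1.87% of theirs in the knockout-labelled libraries and 1.87%, 1.76% and 1.85% in the controls, so the groups overlapped (exact permutation test, two-sided, p = 0.4). The strand setting of the authors' counting is not given in the sources used here. Without it, reads from mt-Nd6 and from RNA of the opposite strand, including the end of mt-Nd5, cannot be told apart.

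Complex III passes electrons on to cytochrome c and has a single mitochondrially encoded subunit, cytochrome b. Its gene mt-Cytb had 11888, 11506 and 12031 FPKM in the knockout-labelled libraries against 5307, 5319 and 5303 FPKM in the controls (log2 fold change 1.58, SE 0.020, edgeR adjusted p = 5.3e-16). The SD was 8.34 FPKM in the controls and 272 FPKM in the knockout-labelled libraries, and the groups lay far apart.

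Complex IV, cytochrome c oxidase, has 3. mt-Co1, the catalytic subunit, was the most abundant of all mitochondrially encoded RNAs per length in every library, with 25285, 24752 and 24884 FPKM against 11168, 11550 and 11431 FPKM (log2 fold change 1.56, SE 0.022, edgeR adjusted p = 6.2e-16). mt-Co2 had 8830, 8719 and 8680 FPKM against 4132, 4145 and 4169 FPKM. mt-Co3 had 9832, 9537 and 9711 FPKM against 4626, 4644 and 4750 FPKM. Both were called higher, mt-Co2 by 1.50 (SE 0.013) and mt-Co3 by 1.48 (SE 0.021) on the log2 scale.

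The ATP synthase genes had the lowest log2 fold changes of the 13, mt-Atp8 under every setting that was run. mt-Atp8 had 8526, 8035 and 8300 FPKM against 4218, 4309 and 4309 FPKM (log2 fold change 1.38, SE 0.030, edgeR adjusted p = 1.2e-13). mt-Atp6, with which it shares an mRNA, had 11022, 10508 and 10707 FPKM against 5485, 5519 and 5505 FPKM (log2 fold change 1.39, SE 0.024, edgeR adjusted p = 7.6e-15). The pair thus moved by nearly the same amount.

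**Figure D2:**
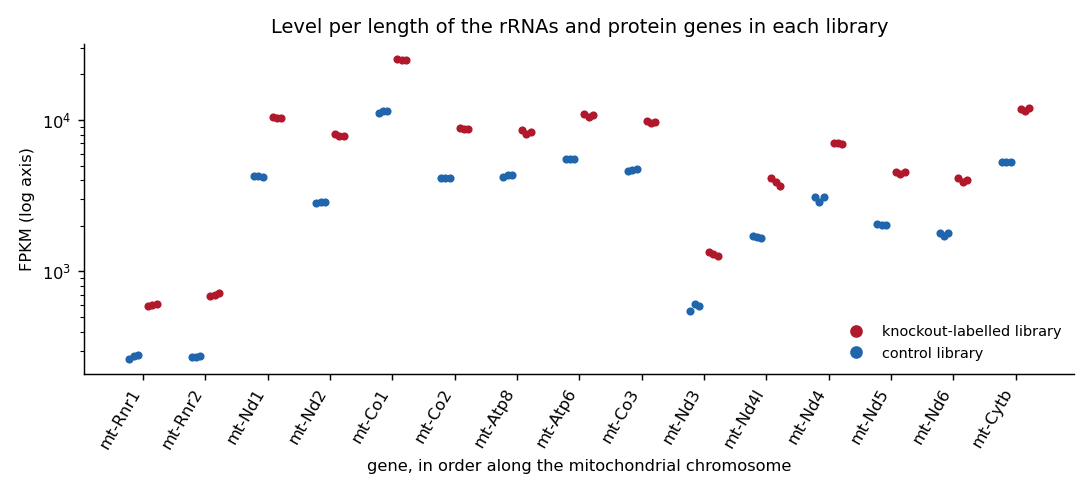
FPKM, on a log axis, of the 2 rRNAs and 13 protein genes in each of the 6 libraries, in order along the mitochondrial chromosome. Points are libraries; mt-Co1 is highest in every library, at 24752 to 25285 FPKM in the knockout-labelled and 11168 to 11550 FPKM in the control libraries, and both rRNAs lie below all protein genes.

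The order of levels per length differed between the groups in 5 of 78 pairs of protein genes. In the knockout-labelled libraries it ran mt-Co1, mt-Cytb, mt-Atp6, mt-Nd1, mt-Co3, mt-Co2, mt-Atp8, mt-Nd2, mt-Nd4, mt-Nd5, mt-Nd6, mt-Nd4l, mt-Nd3. Only mt-Nd6 and mt-Nd4l overlapped among neighbours in this order. In the controls mt-Atp6 stood above mt-Cytb, mt-Co3 and mt-Atp8 above mt-Nd1, mt-Atp8 above mt-Co2, and mt-Nd4 above mt-Nd2. Among neighbours in the control order, mt-Atp8 and mt-Nd1 were the only ones that overlapped. Most of these reversals depend on how reads of the chromosome 1 copies are assigned. With the copies' counts joined to their genes, 1 of the 5 remained, that of mt-Atp8 and mt-Nd1. Neither gene of that pair had an annotated copy to join, so joining could not change its order. The 2 other pairs that then differed in order were mt-Nd1 with mt-Nd4 and mt-Nd2 with mt-Nd4l.

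Taking each gene as a share of the summed counts of the 13 compares them without any scaling between libraries. The share of mt-Nd2 was 7.20%, 7.20% and 7.15% in the knockout-labelled libraries and 5.71%, 5.77% and 5.78% in the controls, a ratio of 1.25. mt-Nd1 followed at 8.61%, 8.71% and 8.62% against 8.03%, 7.93% and 7.80%, a ratio of 1.09. Both genes lie next to each other in the first part of the heavy-strand transcript, after the rRNAs. The share of mt-Atp8 went from 1.69%, 1.71% and 1.71% in the controls to 1.50%, 1.45% and 1.48%, a ratio of 0.870. mt-Atp6 went from 7.32%, 7.32% and 7.28% to 6.49%, 6.34% and 6.38%, a ratio of 0.877. mt-Co3 (ratio 0.931) and mt-Co2 (ratio 0.946) were lower as well. These 4 genes also form a run along the chromosome.

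In all, 2 genes had a higher and 4 a lower share without overlap between groups, which is 46.2% of the 13, and 7 overlapped. The overlapping genes had ratios from 0.985 for mt-Co1 to 1.04 for mt-Nd4, with mt-Cytb at 0.999. Each of the 6 separated shares had exact permutation p = 0.1 (two-sided), the smallest possible, and an adjusted p of 0.217 over the 13, so none passed a threshold that this design cannot reach. Shares within a sum are tied to each other, and a rise of one lowers the rest. As an example chosen after its values were seen, mt-Nd2 over mt-Atp6 in FPKM stood at 0.728, 0.746 and 0.735 in the knockout-labelled libraries and 0.512, 0.517 and 0.521 in the controls.

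**Figure D3:**
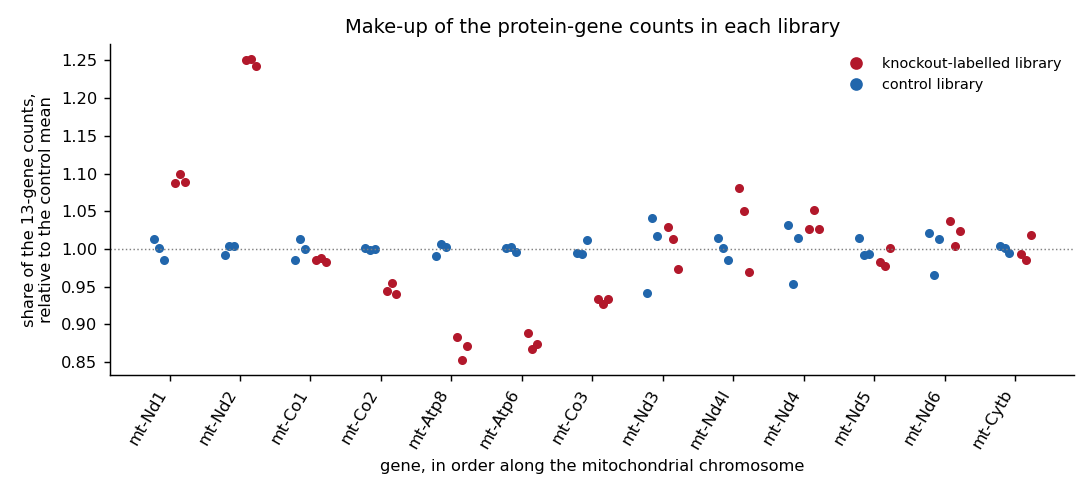
Share of the summed counts of the 13 protein genes held by each gene, divided by its mean share in the controls, in order along the mitochondrial chromosome. Points are libraries; mt-Nd2 sits 1.25 times above the control mean and mt-Atp8 and mt-Atp6 at 0.870 and 0.877 of it, while the points of both groups mix for 7 genes.

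The rRNAs were rare per length in these poly(A)-selected libraries, below every protein gene in both groups. mt-Rnr1 (70 to 1024, plus strand), the 12S rRNA of the small ribosomal subunit, had 596, 604 and 613 FPKM against 266, 278 and 279 FPKM (log2 fold change 1.56, SE 0.028, edgeR adjusted p = 9.6e-14). mt-Rnr2 (1094 to 2675, plus strand), the 16S rRNA of the large subunit, had 690, 703 and 725 FPKM against 271, 271 and 276 FPKM (log2 fold change 1.80, SE 0.020, edgeR adjusted p = 3.9e-15). Both of the 2 tested were called higher, against 28.7% of all genes.

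The rRNAs did not change to the same extent. The ratio of mt-Rnr2 to mt-Rnr1 in FPKM was 1.16, 1.16 and 1.18 in the knockout-labelled libraries and 1.02, 0.972 and 0.987 in the controls, so the 16S rRNA stood above the 12S rRNA in the first group and level with it in the second. Relative to the protein genes, rRNA counts came to 1.44%, 1.50% and 1.52% of theirs in the knockout-labelled libraries and 1.34%, 1.35% and 1.36% in the controls. The groups did not overlap in either ratio (exact permutation test, two-sided, p = 0.1 for each). Because the libraries were selected for poly(A), these values describe the rRNA that passed the selection, not the rRNA of the ribosomes.

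Among the 22 tRNAs, 21 passed the low-count filter, 17 were called higher and none lower, where 28.7% and 28.8% of all genes were. The other 4 tested, mt-Td, mt-Th, mt-Ts2 and mt-Tl2, had log2 fold changes of 0.89 to 1.21 that missed the threshold. The calls of mt-Tv and mt-Tk, which rest on means of 5.67 to 25.7 counts, were lost whichever library was left out, and that of mt-Tt without control replicate 3 or knockout-labelled replicate 1. The protocol in the labels selects cDNA fragments longer than a tRNA, and reads of whole tRNAs and of longer RNAs that contain them cannot be told apart. Mean levels ran from 1.59 to 1683 FPKM in the knockout-labelled libraries and from 1.05 to 629 FPKM in the controls.

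The 3 most abundant tRNA genes and the 1 left out by the filter are shown with the anticodon in capitals, beside mt-Tw, which had the largest log2 fold change.
mt-Te: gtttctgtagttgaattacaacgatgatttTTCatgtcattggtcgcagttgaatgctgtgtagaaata
mt-Ts1: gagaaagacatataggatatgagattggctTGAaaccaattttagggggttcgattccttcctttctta
mt-Tl1: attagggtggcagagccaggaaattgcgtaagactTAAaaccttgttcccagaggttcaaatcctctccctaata
mt-Tw: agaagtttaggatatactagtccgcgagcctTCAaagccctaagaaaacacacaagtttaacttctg
mt-Tf: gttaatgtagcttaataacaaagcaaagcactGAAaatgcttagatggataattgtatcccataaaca
mt-Te, the glutamate tRNA (14071 to 14139, minus strand), had 1664, 1641 and 1745 FPKM against 630, 596 and 636 FPKM (log2 fold change 1.87, SE 0.038, edgeR adjusted p = 7.4e-13). mt-Ts1, the serine tRNA that reads UCN codons (6870 to 6938, minus strand), had 1380, 1368 and 1361 FPKM against 603, 627 and 655 FPKM (log2 fold change 1.55, SE 0.039). mt-Tl1, the leucine tRNA that reads UUR codons (2676 to 2750, plus strand), had 582, 551 and 576 FPKM against 201, 188 and 186 FPKM (log2 fold change 2.00, SE 0.041). mt-Tf, the phenylalanine tRNA at the start of the numbering (1 to 68, plus strand), had only 7, 8 and 11 counts against 6, 8 and 9 counts and was not tested.

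The tRNAs on the minus strand stood higher per length than those on the plus strand. The 8 minus-strand tRNAs had mean levels of 51.0 to 1683 FPKM in the knockout-labelled libraries, with a median of 184 FPKM, and all 8 were called higher. The 14 plus-strand tRNAs had a median of 6.69 FPKM and a range of 1.59 to 569.5 FPKM, and 9 of the 13 tested were called higher. The 2 most abundant were set against the protein gene next to them. mt-Ts1 overlaps the last 3 bases of mt-Co1 on the opposite strand, and its level was 5.46%, 5.53% and 5.47% of that of mt-Co1 in the knockout-labelled libraries and 5.40%, 5.43% and 5.73% in the controls, which overlap. mt-Te lies directly beside mt-Nd6 on the same strand, and its level relative to mt-Nd6 was 40.2%, 41.9% and 43.2% against 35.0%, 34.8% and 35.3%, which do not overlap. As for mt-Nd6, reads of the opposite strand cannot be told apart without the strand setting.

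The 5 tRNAs that follow mt-Nd2 on the chromosome had, with mt-Tl1, the 6 highest log2 fold changes among the 21 tested. mt-Tw, the tryptophan tRNA, had 52.6, 52.0 and 51.8 FPKM against 14.4, 14.8 and 16.0 FPKM (log2 fold change 2.21, SE 0.052, edgeR adjusted p = 4.0e-07). Its neighbours mt-Ta, mt-Tn, mt-Tc and mt-Ty, read from the other strand, had log2 fold changes of 2.00, 1.93, 1.94 and 1.95. At the far end of the chromosome mt-Tp, the proline tRNA, changed by 1.26 (SE 0.083). Summed over all 22, tRNA counts came to 0.295%, 0.294% and 0.300% of the protein-gene counts in the knockout-labelled libraries and 0.261%, 0.258% and 0.268% in the controls.

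**Figure D4:**
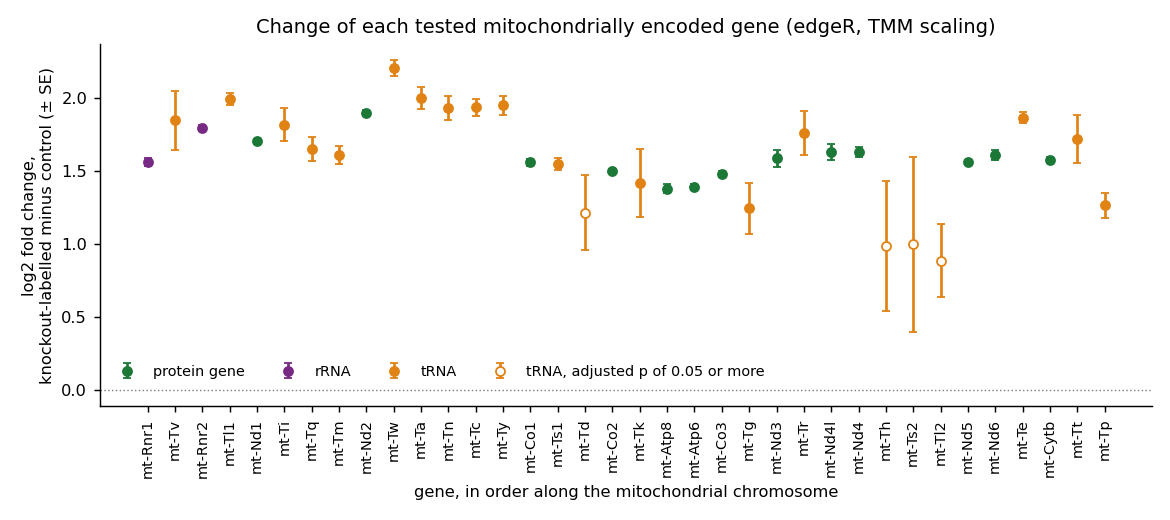
Log2 fold change (knockout-labelled minus control, edgeR with TMM scaling) of the 36 tested genes in order along the mitochondrial chromosome, with SE from the spread between libraries (n = 3 per group). Filled points passed an adjusted p of 0.05 and open points did not; all values lie above 0, from 0.89 for mt-Tl2 to 2.21 for mt-Tw, with mt-Nd2 and the tRNAs after it near the top.

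Most of the chromosome 1 copies had levels nearly equal to those of the genes they match. Atp6-ps, the copy of mt-Atp6, had 11529, 10966 and 11165 FPKM against 5721, 5782 and 5763 FPKM, or 1.04 and 1.05 times the level of mt-Atp6 in the knockout-labelled and control libraries. For the copies of mt-Co2, mt-Co3, mt-Nd3 and mt-Nd4l this ratio lay between 0.987 and 1.00. The copy of mt-Nd4 (Gm28439), which covers 63.6% of the gene, stood at 0.673 and 0.677 of its level. That of mt-Co1 (Gm29216), which covers 31.3%, stood at 0.277 and 0.272. FPKM is already scaled by length, and why these copies lay lower was not tested. All 7 chromosome 1 copies were called higher, where 28.7% of all tested genes were, with log2 fold changes of 1.39 to 1.62. These values are close to those of their mitochondrial partners, but reads of identical sequence cannot be assigned to either. The likeness is therefore no separate result about the copies.

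Another 7 annotated nuclear copies had 90% to 99% identity over at least 200 bases, and none of them exceeded a mean of 17.9 FPKM in either group. The near-identical copies together held 3.27% ± 0.0526 of the counts of knockout-labelled libraries and 1.55% ± 0.0247 in the controls (SD, n = 3 each). The reads of such a copy and of its mitochondrial gene cannot be told apart where their sequence is the same, so the values of the 7 matched mitochondrial genes are uncertain in level. With the copies' counts joined to their genes, the log2 fold changes of the 13 kept their range of 1.38 to 1.90. The shares within the 13 also kept their direction in the 6 genes that separated the groups, at 1.26 for mt-Nd2 and 0.881 for mt-Atp8, and mt-Nd4 then separated them too, at 1.05. mt-Nd1, mt-Nd2, mt-Nd5, mt-Nd6, mt-Cytb, mt-Atp8 and the rRNAs had no such near-identical copy among the annotated transcripts searched. On the mitochondrial chromosome mt-Atp8 lies between mt-Co2 and mt-Atp6, and the copies of these are neighbours in the chromosome 1 block. The sequence between those copies was not examined, so mt-Atp8 may be uncertain in level too. The tRNAs are shorter than the 200 bases required, so the search could not find copies of them.

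**Figure D5:**
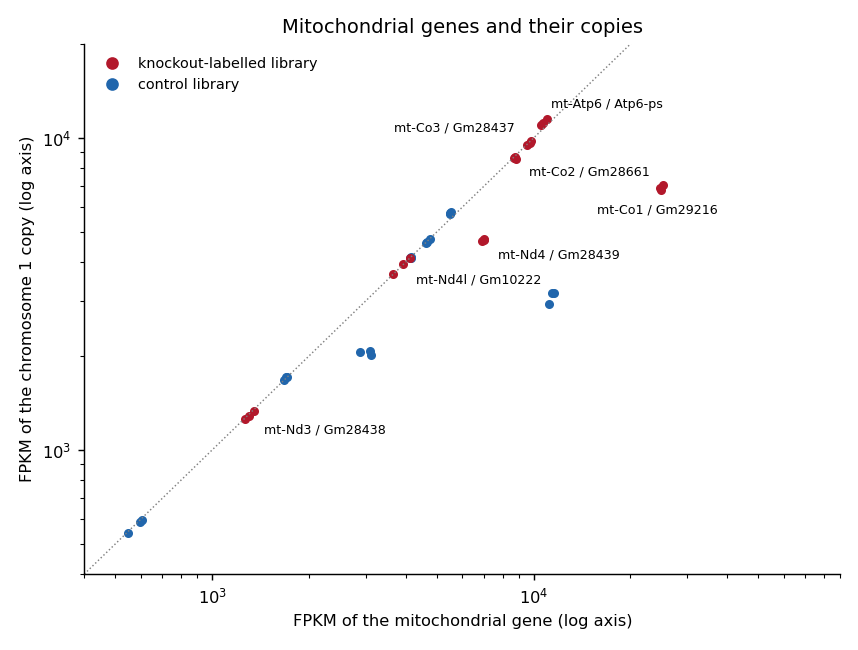
FPKM of 7 mitochondrial genes (horizontal, log axis) and of their near-identical copies on chromosome 1 (vertical, log axis), with 1 point per library and a dotted line of equal levels. Points of 5 pairs lie on the line, and the copies of mt-Nd4 and mt-Co1, which cover 63.6% and 31.3% of their gene, lie below it.

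Mitochondrial RNA depends on proteins encoded in the nucleus. Of 16 genes for its transcription and for mitochondrial DNA replication 10 were called higher, 1 lower and 5 did not pass, with a median log2 fold change of 0.48, where 28.7% of all tested genes were called higher and 28.8% lower. With library totals 7 were higher and 5 lower. That scaling calls 3379 of all 20388 genes higher and 10340 lower, and it applies to the other nuclear lists too. Tfb2m, which opens the promoter for the mitochondrial RNA polymerase, rose by 1.10 (SE 0.050). Tfam, which packages mitochondrial DNA and binds its promoters, stood at 8.41 ± 0.513 FPKM against 6.87 ± 0.163 FPKM in the controls (SD, n = 3) and had a log2 fold change of 0.72 (SE 0.051). Mgme1, a nuclease of mitochondrial DNA replication, rose by 0.76, and Primpol, a primase, fell by 0.36. Polg, the catalytic subunit of the replicating polymerase, had a log2 fold change of -0.002 (SE 0.023) and did not pass.

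The counts for processing and translation genes depend on the scaling. With TMM 28.7% of all tested genes were called higher and 28.8% lower. With library totals 3379 of all 20388 tested genes were higher and 10340 lower. In the list of RNA processing and decay 18 of 20 were called higher with TMM, none lower, with a median of 0.63, and 10 were higher and 3 lower with library totals. Lrpprc, which stabilizes mitochondrial mRNAs, rose by 1.20 (SE 0.048), Fastk by 1.05 and the RNA-binding protein gene Grsf1 by 0.91, while Fastkd5 had a value of 0.31 that did not pass. In the list of rRNA modification and ribosome assembly 12 of 15 were higher and none lower with TMM, with a median of 0.51, and 5 were higher and 3 lower with library totals. Mrm3 and Nsun4, rRNA methyltransferase genes that are among its 3 smallest adjusted p-values, rose by 1.24 and 0.91, and Eral1, an rRNA chaperone gene, by 0.66. For tRNA modification and charging 20 of 30 were higher and 2 lower with TMM, with a median of 0.43, and 9 were higher and 9 lower with library totals. Gatb, Gatc and Iars2, which serve the charging of mitochondrial tRNAs, rose by 1.04, 0.73 and 0.50, though the Iars2 call was lost with library totals and with FPKM. Gtpbp3 and Wars2 fell by 0.21 and 0.30, both calls near the threshold (edgeR adjusted p = 0.045 and 0.047) that were lost with several libraries left out. All 10 translation factor genes were higher with TMM, with a median of 0.86, and 5 with library totals. They include Taco1, an activator of mt-Co1 translation, which rose by 1.69, Gfm1 by 1.19 and Tufm by 1.14.

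Regulators of mitochondrial biogenesis went both ways. Of 11, 4 were higher and 2 lower, with a median of 0.02, shares near the 28.7% and 28.8% of all tested genes, and 4 were higher and 7 lower with library totals. Ppargc1a, the coactivator PGC-1 alpha, stood at 1.85 ± 0.219 FPKM against 0.556 ± 0.0452 FPKM in the controls (SD, n = 3) and had a log2 fold change of 2.15 (SE 0.12). Esrrg and Esrra, estrogen-related receptor genes that act with it, rose by 1.49 and 1.05. Gabpb1 and Gabpa, the subunits of a nuclear factor for respiratory genes, fell by 0.46 and 0.15. The Gabpa call depended on the libraries used, and the count of lower genes became 1 without control replicate 2 or knockout-labelled replicate 2.

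All 20 listed nuclear genes for subunits of the same complexes were called higher with TMM, where 28.7% of all tested genes were. Their log2 fold changes ran from 1.00 to 1.61 with a median of 1.35, beside 1.58 for the 13 encoded genes. All 20 were also called higher with library totals and with FPKM. Uqcrc1 of complex III, Atp5f1b and Atp5f1a of the ATP synthase and Ndufs8 of complex I rose by 1.51, 1.39, 1.33 and 1.19. The 10 markers of mitochondrial mass were all called higher with TMM, with a median of 0.87. With library totals 6 were higher and 2 lower, where 3379 of all 20388 tested genes were higher and 10340 lower. Vdac1 and Vdac3, channels of the outer membrane, and the citrate synthase gene Cs rose by 1.73, 1.59 and 1.60, and Tomm70a, an import receptor gene, by 0.21. Tomm70a turned to -0.21 with library totals and -0.19 on log2(FPKM + 1). The skeletal muscle and osteoblast markers given above moved beside all these lists, and their part was not tested.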

How the data were processed

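Per the labels' protocols, RNA of femur was poly(A)-selected and sequenced as stranded read pairs. Tools named in the submitters' processing notes are RSEM, StringTie, HISAT2 and fastp (no versions or roles), with build GRCm39. The sources used here do not give the strand setting, the treatment of reads with several matches or the annotation release. The deposited tables hold FPKM per gene and transcript, computed by the authors, and estimated counts as whole numbers. Each deposited estimated count followed FPKM times length for 100% of values above 0, within 1 count. This relation holds whichever was derived from the other, so it cannot tell whether the counts came from coverage. Groups were taken from the treatment label and replicate numbers from the titles.

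Counts were tested with edgeR 4.0.16 in R 4.3.3 (filterByExpr, TMM, quasi-likelihood F test, two-sided, group alone in the model), with p-values adjusted over all 20388 genes that passed. SEs come from log2 CPM with a prior count of 2. Shares and ratios were tested with exact permutation tests (scipy 1.17.1). Alternatives were DESeq2 1.42.0, limma 3.58.1 on log2(FPKM + 1) and on log2(FPKM + 0.1) for genes with 1 FPKM or more in 3 libraries, other scalings, no filter, counts divided by 4, a replicate block and leaving out each library. Nuclear copies were found with blastn 2.17.0 in GENCODE M21 transcripts, matched by gene ID, a step chosen after seeing the data. The transcript lengths of all 37 genes equalled those of the deposited table. All mitochondrial protein genes and rRNAs and, of each list of nuclear genes, the 3 smallest adjusted p-values in each direction and the largest adjusted p were named, together with tRNAs of at least 12 mean counts. Not every tRNA or list member that this rule took is printed. Members and lists were chosen with earlier results of these data known. On simulated counts for this comparison edgeR (20388 genes) recovered 57 of the 67 genes changed 1.5-fold, 62 of the 67 changed 2-fold and all 66 changed 4-fold, and called 8 of 20188 unchanged genes. The 200 changed genes were drawn from well-counted genes, with equal numbers raised and lowered. Recovery at the low counts of the rarest tRNAs was therefore not simulated. Nor was a difference in composition as large as that between these groups.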

Additional observations from a re-analysis of the deposited data

How the results depend on the processing

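Over 16 alternatives the 36 tested mitochondrial genes gave 569 values, fewer where a gene missed a filter. All 569 kept their direction and 547 their side of the threshold. Of the rest, mt-Tv, mt-Tk and mt-Tt lost their call in 20 and mt-Td gained one in 2. The median log2 fold change of the 13 protein genes ran from 1.15 to 1.59. Over all genes, library totals gave 3379 higher and 10340 lower, and limma on log2(FPKM + 1) and log2(FPKM + 0.1) gave 2822 and 2819 higher. The share difference of the protein genes, 6.84 percentage points, became 11.2 as a share of FPKM, 8.30 as percent of counts outside the mitochondrial genes, 7.25 with Atp6-ps added and 8.56 with the chromosome 1 copies joined. For rRNAs 0.109 became 0.144 and 0.131, and for tRNAs 0.0221 became 0.566 and 0.0266, by the first and second of these denominators. The mt-Nd6 difference of 0.0404 became 0.130 in FPKM.

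In the nuclear lists, library totals, log2(FPKM + 1) and log2(FPKM + 0.1) gave, in this order, for RNA processing 10, 11 and 11 higher and 3, 3 and 3 lower, for rRNA modification 5, 6 and 6 higher and 3, 3 and 3 lower, and for tRNA modification 9, 9 and 9 higher and 9, 8 and 8 lower. They gave 5, 5 and 5 higher among translation factors, 6, 6 and 6 higher and 2, 3 and 3 lower among mass markers, 5, 5 and 5 lower in transcription and replication, and 7, 7 and 7 lower among biogenesis regulators. Mettl17 turned to -0.39, -0.30 and -0.38, Mtrf1l to -0.062, -0.038 and -0.051, Ppard to -0.40, -0.31 and -0.39, and Tomm70a to -0.21, -0.19 and -0.21. The scaling by library totals itself shifts the median gene by -0.42. For the FPKM settings the cause was not tested. The 2 lower genes of tRNA modification became 1 without the filter, 0 with the replicate block and 0 to 1 with a library left out, and the 2 lower biogenesis regulators became 1 to 3 with a library left out. Replicate numbers did not pair the libraries: same-numbered libraries had correlations of -0.0476, -0.0122 and 0.0101. With the block the 13 protein genes kept a median of 1.58, and the calls of mt-Tk and mt-Tv were lost.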
